A study of Mus musculus with 2 samples.

Results

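Meg3, Rian, Mirg, Dlk1, Peg3, Igf2, H19, Cdkn1c, Ndn and Plagl1 are 10 imprinted genes among the 25814 genes counted in Nestin-GFP positive (Nes-GFP+) cells of the mouse brain and lung. The genes were selected on measured values: the list, and the wish to follow Meg3, Rian and Mirg together over neuroblast stages, were set with their levels in these libraries known. Their levels across cell classes are therefore a description, and no test was made of them. All 10 had counts in both libraries.

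Cells carrying GFP under Nestin regulatory elements were sorted from the brain and from the lung of adult mice of about 6 weeks, which the labels give as strain C57BL/6. The study's methods instead describe CD1 or mixed CD1 and C3H stock with which the transgenic lines were bred. Each tissue gave 1 droplet (Chromium) library of 3′ ends, so there were no replicates, the number of animals behind a library was not given in the sources used here, and tissue and library cannot be told apart. The transgene marks cells in which the Nestin elements are active, which in the lung include pericytes and fibroblasts, and the comparison of the tissues served to look for neural stem cell-like cells in the lung.

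Imprinted genes are transcribed mainly from the chromosome copy of 1 parent. Meg3, Rian and Mirg are noncoding RNAs of the maternal copy of the Dlk1-Dio3 domain, lie in the same orientation one after the other, and host small RNAs, while Dlk1, a membrane protein related to Notch ligands, is read from the paternal copy of the same domain. Igf2 encodes a growth factor of the paternal copy and H19 is a noncoding RNA of the maternal copy beside it. Cdkn1c (p57) is a maternal inhibitor of cyclin-dependent kinases. Peg3 and Plagl1 are paternal zinc finger proteins, and Ndn (necdin) is a paternal protein known for its role in neurons that have left the cell cycle. In the ventricular-subventricular zone of the adult brain, quiescent neural stem cells become activated progenitors, which give cycling and then non-cycling neuroblasts. The counts do not separate the parental copies, so nothing here concerns which copy was read.

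Coordinates are those of build GRCm38 (mm10) in the GENCODE M21 annotation. On chromosome 12, Dlk1 lay at chr12:109452823-109463336, Meg3 at chr12:109541001-109571726, Rian at chr12:109603940-109661716 and Mirg at chr12:109729764-109749460, all on the plus strand. On chromosome 7 were Peg3 (chr7:6703892-6730431, minus strand), Ndn (chr7:62346569-62350262, plus), H19 (chr7:142575529-142578143, minus), Igf2 (chr7:142650766-142666816, minus) and Cdkn1c (chr7:143458339-143461050, minus), and Plagl1 lay at chr10:13060504-13131694 on the plus strand. Meg3, Igf2, Cdkn1c and Ndn each overlapped 1 annotated gene of the opposite strand (Gm26906, Igf2os, Gm44732 and Gm32061), and Rian and Igf2 each overlapped 1 of the same strand (Gm26945 and Gm49394). Whether the counting used strand was not given in the sources used here, so reads of such overlapping genes may be mixed.

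The annotation places 4 small RNA genes within Meg3, 18 within Rian and 15 within Mirg. RefSeq places 3 mature miRNAs within the bounds of Meg3 on its strand, 6 within Rian and 26 within Mirg. Libraries of polyadenylated 3′ ends do not count mature miRNAs, so these sequences show what the host transcripts carry and were not measured here. The seed, bases 2 to 8 from the 5′ end, is in capitals, and miR-453 and miR-496a-5p are the only pair among these miRNAs with a seed in common.
mmu-miR-770-5p, in Meg3: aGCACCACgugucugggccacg
mmu-miR-370-3p, in Rian: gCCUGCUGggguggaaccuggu
mmu-miR-341-3p, in Rian: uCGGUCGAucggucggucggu
mmu-miR-134-5p, in Mirg: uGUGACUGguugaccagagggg
mmu-miR-382-5p, in Mirg: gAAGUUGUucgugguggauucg
mmu-miR-410-3p, in Mirg: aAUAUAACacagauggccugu
mmu-miR-453, in Mirg: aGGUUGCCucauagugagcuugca
mmu-miR-496a-5p, in Mirg: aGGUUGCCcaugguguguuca

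The 300 bases around a start site are shown for Meg3, which leads the results below, and for Peg3, the other member whose window holds the same motif. RefSeq promoter windows, from 250 bases before to 50 after a start, were found for 8 of the 10 members (12 windows, table build GRCm38.p6). The cAMP response element TGACGTCA, which reads the same on both strands, was looked for in each. It stood in 2 of these members, 57 bases before the start of Meg3 and 178 before that of Peg3. Of all genes with a window, 549 of 27025 (2.03%) held it, and of all windows 588 of 32851 (1.79%). A match of letters is a description and not evidence of a bound factor. The windows run 5′ to 3′ on the strand of the gene, chr12:109540746-109541045 (plus) for Meg3 and chr7:6730370-6730669 (minus) for Peg3, with the element in capitals.
Meg3: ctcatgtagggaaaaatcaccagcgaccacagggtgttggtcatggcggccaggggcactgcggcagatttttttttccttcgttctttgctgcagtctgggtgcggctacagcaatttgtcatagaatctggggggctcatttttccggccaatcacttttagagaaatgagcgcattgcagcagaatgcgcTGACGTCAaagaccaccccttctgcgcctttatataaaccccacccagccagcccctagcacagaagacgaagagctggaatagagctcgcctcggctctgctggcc
Peg3: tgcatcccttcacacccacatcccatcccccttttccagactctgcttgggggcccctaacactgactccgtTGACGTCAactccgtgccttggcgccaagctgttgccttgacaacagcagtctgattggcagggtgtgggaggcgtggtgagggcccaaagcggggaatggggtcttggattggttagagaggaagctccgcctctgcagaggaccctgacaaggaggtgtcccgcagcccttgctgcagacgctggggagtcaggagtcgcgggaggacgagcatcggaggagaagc

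The files held 4640 brain and 5981 lung barcodes. The study's cell maps show as many cells, whereas the limits stated in its methods, applied here, left 4151 and 5608 cells, with median depths of 4209 and 5585 unique molecular identifiers (UMIs, counted molecules). A cell was assigned to a class when at least 3 markers of that class were found in it and the class led the next by at least 0.1 of its markers, which placed 3857 brain cells (92.9%) and 4576 lung cells (81.6%). The class names below mean cells that resemble the named type by these markers. In each class at least 1 own marker and no marker of another class stood among the 10 leading genes. Assignment by the same markers favors this, so it is no separate support for the names. Matrix fibroblasts had 1 of their 7 markers there, Dcn. The libraries shared 15 barcodes, 11 of them among the cells kept, and no member ratio recomputed without them changed direction. Levels are counts per 1000000 UMIs (CPM) summed over the cells of a class, with exact 95% intervals in parentheses. These intervals cover counting error only and say nothing of the spread between animals.

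Neuroblasts held most of the Meg3 RNA counted in the brain. The 1958 neuroblasts held 16743 of its 18953 brain UMIs (88.3%) against 50.2% of all UMIs. Its level was 1709 CPM in neuroblasts, 342 in mural cells, 278 in quiescent glial cells, 275 in oligodendrocyte precursors (OPCs) and 259 in ependymal cells. It was lower in microglia (171), fibroblasts (94.9), activated progenitors (60.4), endothelial cells (28.0) and mature oligodendrocytes (8.19). The microglial value rested on 1 cell with 25 of the 26 UMIs, and the order of quiescent glial cells, OPCs and ependymal cells was within counting error. Neuroblasts stood 6.15-fold (5.75 to 6.59) above quiescent glial cells.

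**Figure D1:**
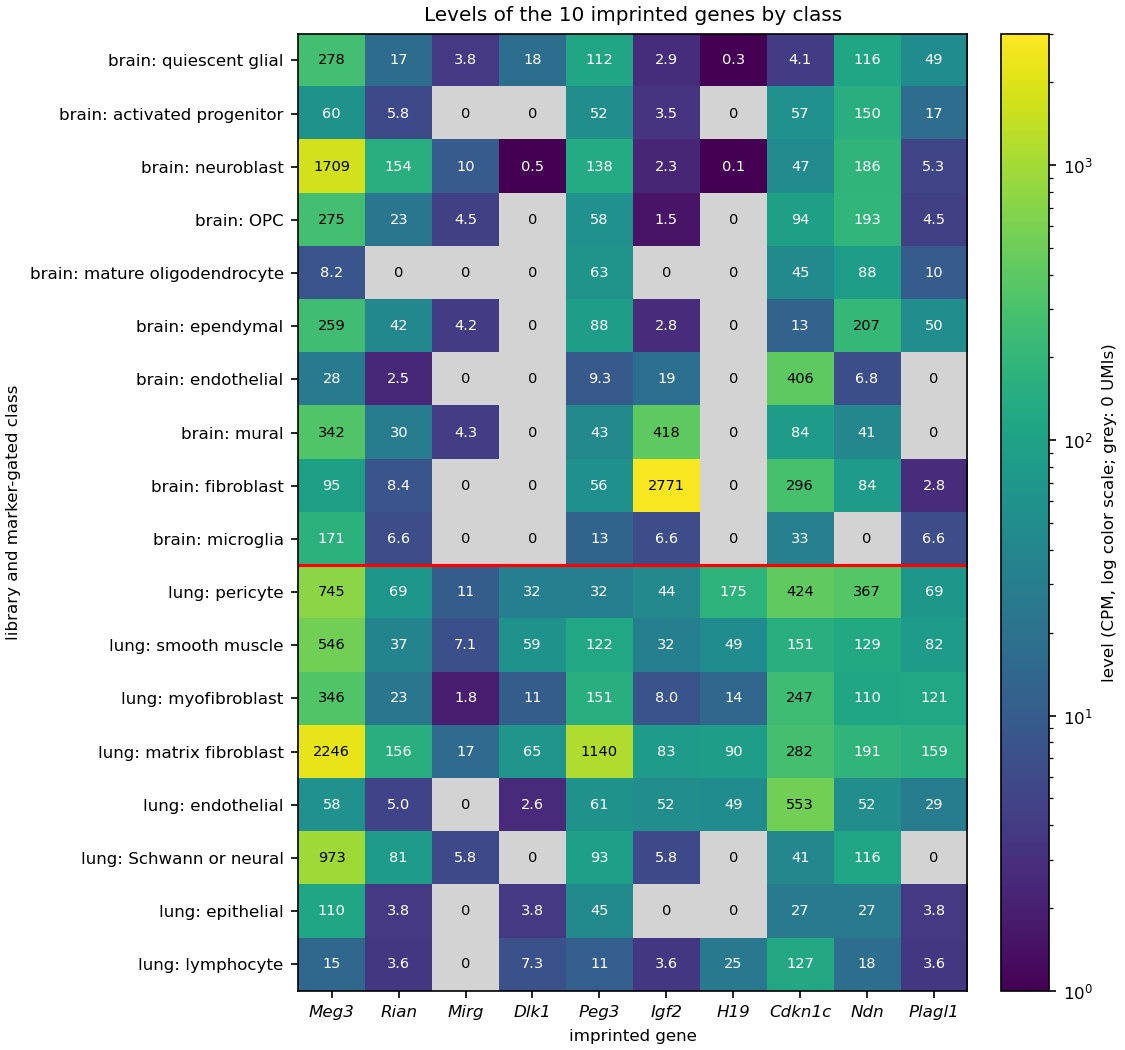
Level (CPM, log color scale from 1) of each of the 10 genes (columns) in each marker-gated class of the brain and lung libraries (rows, split by the red line), with grey for 0 UMIs. Meg3 peaks in brain neuroblasts (1709) and lung matrix fibroblasts (2246), Igf2 in brain fibroblasts (2771), and the H19 column is empty or below 1 CPM in every brain class.

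Rian and Mirg were also highest in neuroblasts. Rian, the transcript downstream of Meg3, reached 154 CPM in neuroblasts, 42.0 in ependymal cells, 30.1 in mural cells, 23.4 in OPCs and 16.9 in quiescent glial cells. Among the last 4, each class and the next in order did not differ beyond counting error, which does not cover classes further apart. Neuroblasts held 88.2% of the brain UMIs of Rian. Mirg was sparse, with 98 UMIs in neuroblasts (10.0 CPM), 12 in quiescent glial cells (3.82 CPM) and none in 5 of the 10 brain classes. Over 14 brain groups (the classes with neuroblasts and activated progenitors split by stage), Rian was the gene most like Meg3 among 10012 genes with at least 200 UMIs, with a correlation of log levels of 0.960. The next were Grip1 (0.921), Ppp1r12b (0.908), Klhl9 (0.905) and Map3k13 (0.904), and Mirg, under the UMI minimum, had 0.939 with Meg3 and 0.976 with Rian. These 14 points share 1 library and differ in depth, so the values are a description of that library.

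Along the neuroblast stages, Meg3, Rian and Mirg were all higher in non-cycling than in cycling cells. A neuroblast was called cycling when at least 3 of 10 cell cycle genes were found in it, and the 1600 others were ranked by a score of 10 late neuronal genes (Stmn2, Gap43, Syt1 and others) and cut into 3 equal parts. Meg3 measured 60.4 CPM in activated progenitors (52 UMIs), 314 in cycling neuroblasts (889 UMIs), 1822 in early (4017 UMIs), 2278 in middle (5394 UMIs) and 2696 in late neuroblasts (6443 UMIs). Over cells of all depths, each stage stood above the one before it, an order that did not hold among shallow cells alone (described with the depth split). Non-cycling neuroblasts stood 7.26-fold (6.78 to 7.77) above cycling ones in Meg3, 4.97-fold (4.11 to 6.07) in Rian and 3.58-fold (1.86 to 7.73) in Mirg. Malat1, a nuclear noncoding RNA, followed the same order over these 5 groups, with 16620 CPM in activated progenitors, 28582 in cycling, 42950 in early, 47954 in middle and 52400 in late neuroblasts, and its part in these ratios was not tested.

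Rian went from 5.80 CPM in activated progenitors to 40.2 in cycling, 160 in early, 204 in middle and 233 in late neuroblasts. Mirg had no UMI among the 101 activated progenitors, which allows up to 3.48 CPM at 3 counts, and 3.53 CPM in cycling neuroblasts, 11.8 in early, 13.1 in middle and, on 31 UMIs, nearly the same in late ones. The late and early levels of Mirg did not differ beyond counting error, and in cells at or over the median depth of the staged neuroblasts early over cycling was 1.17 (0.348 to 3.54) on 6 and 10 UMIs, so no difference was detectable there. Activated progenitors had 0.217 times (0.161 to 0.287) the Meg3 level of quiescent glial cells. They also had less Malat1 (16620 against 136951 CPM) and Neat1, another nuclear noncoding RNA (15.1 against 411 CPM), and a median depth of 9016 against 3655 UMIs, whose part in the Meg3 ratio was not tested. Of the 52 activated Meg3 UMIs, 34 were in 5 cells, 19 of them in 1. The shares of cells with a Meg3 UMI were 18.8% in activated and 19.7% in quiescent cells, and the shares after thinning each cell to 1000 UMIs, 5.94% (2.21 to 12.5) and 12.7% (10.4 to 15.2), overlapped in their intervals.

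**Figure D2:**
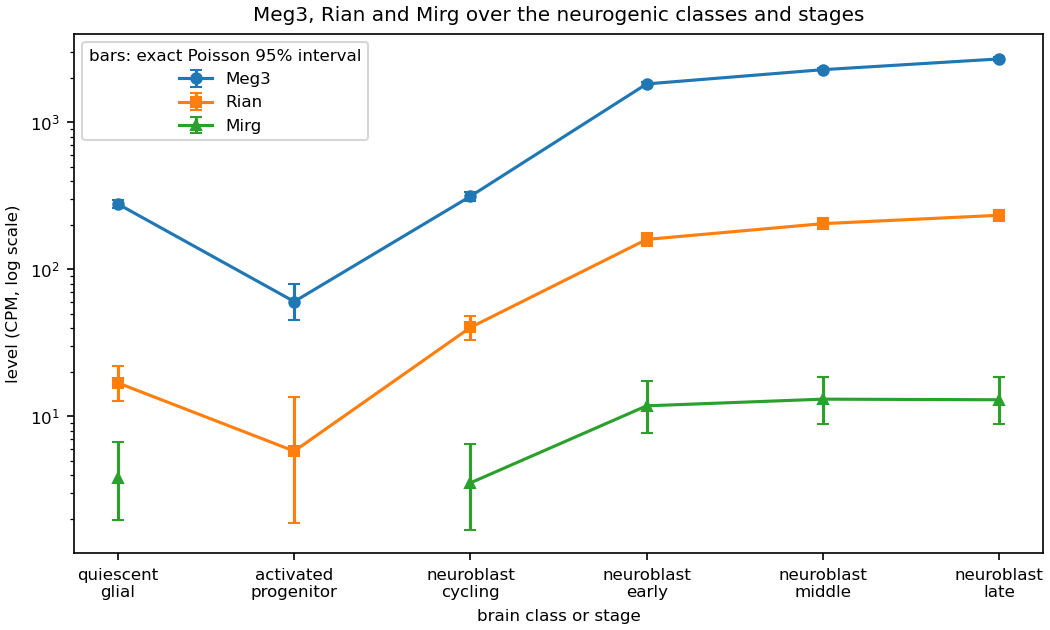
Level (CPM, log scale, with exact Poisson 95% intervals) of Meg3, Rian and Mirg in quiescent glial cells, activated progenitors and 4 neuroblast stages of the brain library. All 3 are lowest or absent in activated progenitors, early neuroblasts stand above cycling ones in Meg3 by 5.81-fold (2.56-fold among deep cells), and late stand 1.48-fold above early ones.

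Of the 8 members that could be compared between non-cycling and cycling neuroblasts (at least 10 UMIs over both), Meg3, Rian and Mirg were at least 2-fold higher with an interval that excluded 1, and Plagl1 was at least 2-fold lower. Among all 13592 genes compared in the same way, 7.79% were higher and 7.35% lower. Plagl1, which encodes a zinc finger protein that can halt the cell cycle, had 9.18 CPM (26 UMIs) in cycling and 3.73 CPM (26 UMIs) in non-cycling neuroblasts. The cyclin-dependent kinase inhibitor Cdkn1c measured 63.2 CPM in cycling and 40.2 in non-cycling neuroblasts, a ratio of 0.637 (0.526 to 0.772). Ndn had a ratio of 1.44 (1.29 to 1.62), Peg3 0.809 (0.722 to 0.908), which turned to 1.38 among cells under the median depth, and Igf2 1.93 (0.642 to 7.81, on 19 and 4 UMIs).

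The other members ran differently along the same sequence. Plagl1 measured 49.0 CPM in quiescent glial cells, 17.4 in activated progenitors, 9.18 in cycling and 3.73 in non-cycling neuroblasts. Cdkn1c measured 4.14, 56.9, 63.2 and 40.2 CPM in the same 4 groups, so its lowest level was in the quiescent class. Peg3 measured 112, 52.2, 160 and 129 CPM and Ndn 116, 150, 141 and 204 CPM. Dlk1 had 57 UMIs in quiescent glial cells, none in activated progenitors and 5 in all neuroblasts.

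Between early and late neuroblasts the trio differed less. Meg3 was 1.48-fold (1.42 to 1.54) higher in late cells, Rian 1.46-fold (1.27 to 1.67) and Mirg 1.10-fold (0.632 to 1.93). Hemoglobin genes took 212 CPM in early and 6.69 in late cells, and the endothelial markers 71.7 and 20.1 CPM, with a median of 0 per cell in both stages. Their part in the ratios was not tested. None of the 8 members compared was 2-fold higher, against 1.25% of 11993 genes, and Igf2 was lower with 13 UMIs in early and 2 in late cells, against 2.87% of genes, with 12 of the 13 in 5 cells. Peg3 had a ratio of 0.851 (0.724 to 0.999), Ndn 1.04 (0.918 to 1.19) and Cdkn1c 0.942 (0.700 to 1.27). The cuts between the parts fell in a continuum, with 221 and 250 of the 1600 cells within 0.05 of the lower and upper cut (scores of 0.890 and 1.11).

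The difference between early and late cells was not the same in shallow and deep cells. Split at the median depth of the staged cells (4176 UMIs), the shallower cells had 3699 CPM of Meg3 in early, 3148 in middle and 3902 in late neuroblasts, a late over early ratio of 1.05 (1.003 to 1.11). Middle cells were thus below early ones there, at 0.851 times (0.807 to 0.897). The deeper cells had 768 CPM in early, 1777 in middle and 2097 in late neuroblasts, a late over early ratio of 2.73 (2.55 to 2.93). Rian measured 346, 289 and 344 CPM in shallow early, middle and late cells and 55.3, 156 and 178 CPM in deep ones. Most cycling neuroblasts, 326 of 358, were deep, and among deep cells early stood above cycling neuroblasts by 2.56-fold (2.33 to 2.80) in Meg3 and 1.49-fold (1.09 to 2.01) in Rian, less than over all depths. The 303 shallow and 231 deep early cells also differed in other measures. Malat1 took 62422 CPM in the shallow and 32010 CPM in the deep early cells, and mitochondrial genes took 4.93% and 3.74% of their UMIs. The late genes of the score took 3931 CPM in the shallow and 3257 CPM in the deep early cells, and the early genes 364 and 749 CPM. Deep early cells thus had less of the late and more of the early genes. In each of the 4 stages the shallower cells had the higher Meg3 level. Within both depth groups non-cycling cells stood above cycling ones, 4.995-fold in shallow and 5.24-fold in deep cells for Meg3. For Rian these ratios were 2.46 and 3.55, less than over all depths. As a mean of single-cell CPM, which weights each cell equally, the late over early ratio was 1.12 for Meg3 and 0.973 for Rian. The part of depth, early and late genes, Malat1 and mitochondrial genes in these differences was not tested.

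**Figure D3:**
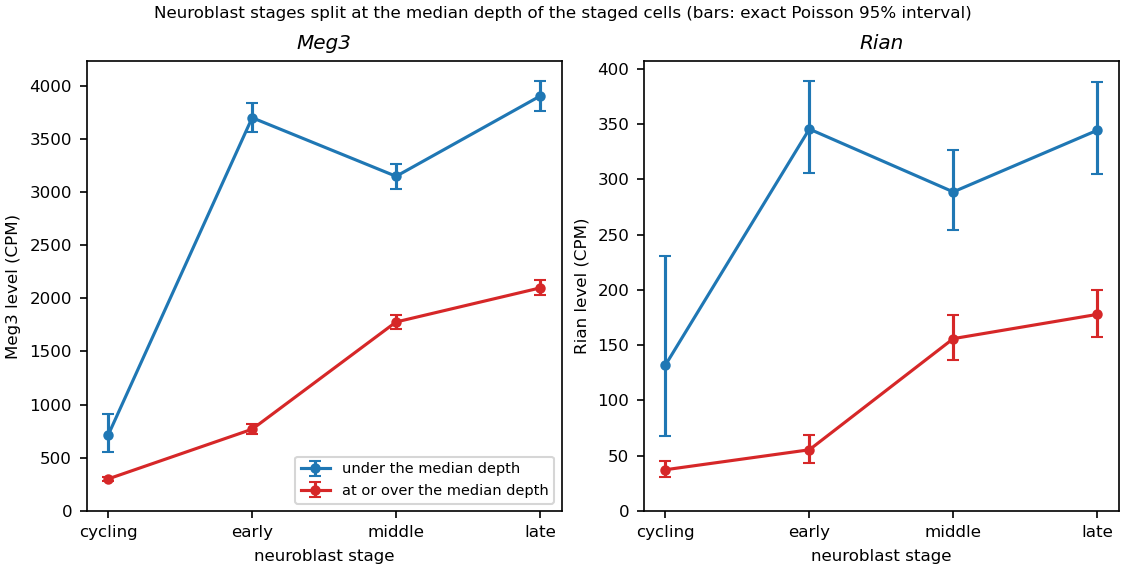
Levels of Meg3 and Rian (CPM, with exact Poisson 95% intervals) in cycling, early, middle and late neuroblasts, for cells under and at or over the median depth of 4176 UMIs. Meg3 in shallow cells measures 3699, 3148 and 3902 CPM in early, middle and late neuroblasts, and in deep cells 768, 1777 and 2097 CPM.

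Counted per cell, Meg3 was found in most but not all neuroblasts. A median late cell held 11 Meg3 UMIs, a middle one 8 and an early one 4, while the lower quartile was 3, 1 and 0 UMIs and the most in 1 cell 59, 51 and 62. A median cycling neuroblast held none, although cycling cells were read more deeply (median 8206.5 UMIs against 4361 in late cells). With each cell thinned to 1000 UMIs, Meg3 was found in 17.7% (13.9 to 22.1) of cycling, 53.9% (49.4 to 58.3) of early, 65.5% (61.3 to 69.5) of middle and 73.3% (69.3 to 77.0) of late neuroblasts. Thinning left out 2 cycling, 33 early and 1 late cell under 1000 UMIs, and the unthinned shares were 41.1%, 65.0%, 78.4% and 81.8%. In brain endothelial cells, a class low in Meg3 (median depth 3758 UMIs), the thinned share was 1.66% and the unthinned 5.79%. Of the 709 non-cycling neuroblasts with a Rian UMI, 703 (99.2%) also held Meg3, against 75.1% of all 1600.

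Relative to Meg3, Rian did not differ among the non-cycling stages beyond counting error. Per 100 Meg3 UMIs there were 8.76 Rian UMIs (7.84 to 9.77) in early, 8.97 (8.16 to 9.85) in middle and 8.65 (7.91 to 9.43) in late cells. These numbers are read between classes only, since the UMIs of different genes also depend on their 3′ ends. Cycling neuroblasts had more Rian for their Meg3, 12.8 (10.5 to 15.6) per 100. Quiescent glial cells had 6.07 (4.51 to 8.01) and ependymal cells 16.2 (10.6 to 23.9). Mirg gave 0.65 (0.42 to 0.95), 0.57 (0.39 to 0.82) and 0.48 (0.33 to 0.68) per 100 Meg3 UMIs in early, middle and late neuroblasts, with intervals too wide to show either a difference or its absence.

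**Figure D4:**
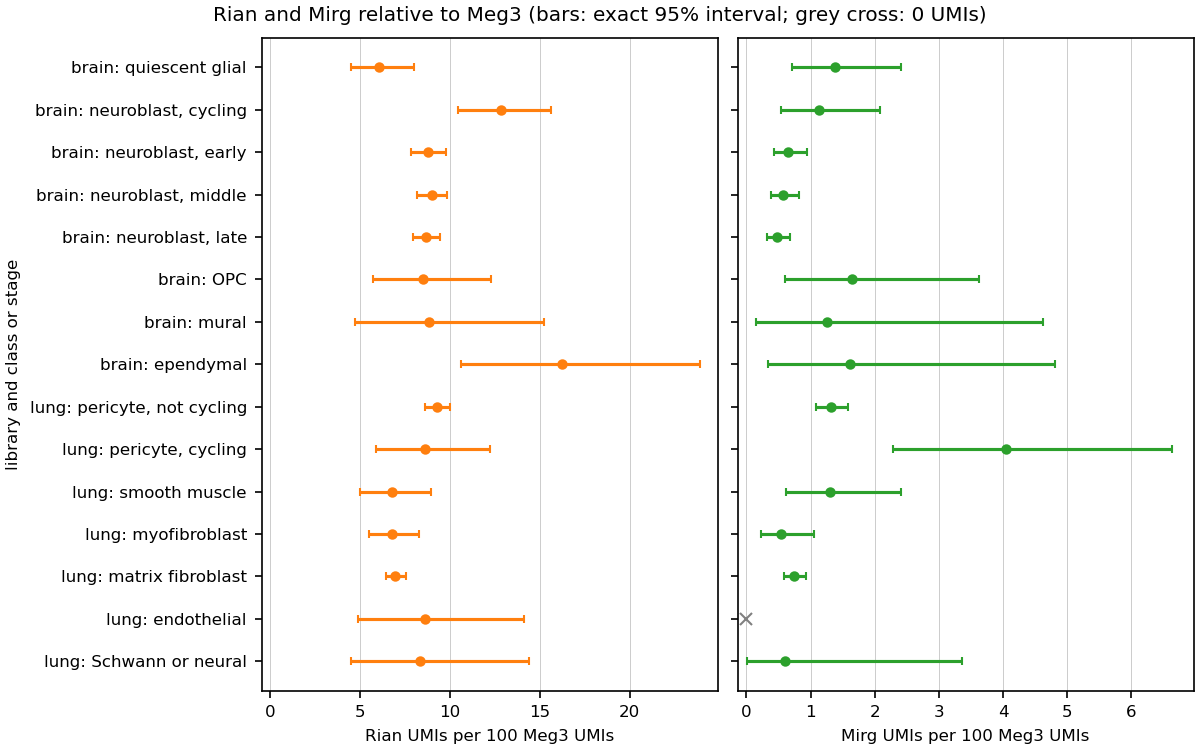
UMIs of Rian (left) and Mirg (right) per 100 UMIs of Meg3, with exact 95% intervals, in 15 classes and stages of both libraries. Among these 15, Rian is highest in ependymal cells (16.2) and cycling neuroblasts (12.8) and lies between 6.07 and 9.30 in the others. Mirg is highest in cycling lung pericytes (4.04). Groups not shown include cycling lung myofibroblasts (Rian 17.9, 6.77 to 40.6, on 7 UMIs) and activated progenitors (9.62, on 5 UMIs).

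In the lung, the level of Meg3 was highest in matrix fibroblasts, which held 35.4% of its UMIs, while the more numerous pericytes held 32.7%. Meg3 measured 2246 CPM in the 498 matrix fibroblasts, 973 in 33 Schwann or neural cells, 745 in 2386 pericytes, 546 in smooth muscle cells and 346 in myofibroblasts. It was low in epithelial cells (110), endothelial cells (57.7) and lymphocytes (14.6). Each of these neighbors in order differed beyond counting error. A median matrix fibroblast held 15 Meg3 UMIs, and 95.2% of the class held at least 1. Matrix fibroblasts had 0.833 times (0.807 to 0.860) the level of late brain neuroblasts, across libraries in which the median over all genes of the same ratio was -0.24 on the log2 scale.

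The lung endothelial value came from few cells. Of the 198 Meg3 UMIs in 600 endothelial cells, 82 were in 1 cell and 125 (63.1%) in 5 cells. Rian measured 156 CPM in matrix fibroblasts, 81.1 in Schwann or neural cells, 69.1 in pericytes, 36.9 in smooth muscle cells and 23.4 in myofibroblasts. Mirg measured 16.6 CPM in matrix fibroblasts (71 UMIs) and 10.7 in pericytes (127 UMIs, 44.9% of the lung's), and no UMI was found in the 600 endothelial cells. Per 100 Meg3 UMIs, pericytes had 1.44 Mirg UMIs (1.19 to 1.71), matrix fibroblasts 0.74 (0.58 to 0.94) and brain neuroblasts 0.59 (0.47 to 0.71).

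Cycling cells had less Meg3 in the lung too. The 176 cycling pericytes measured 375 CPM and the 2210 others 782, a ratio of 0.479 (0.432 to 0.530), and cycling myofibroblasts measured 115 CPM on 39 UMIs against 365. Rian in pericytes had a ratio of 0.443 (0.304 to 0.624), whereas Mirg, with 16 UMIs in cycling pericytes, had 1.47 (0.815 to 2.50). In myofibroblasts Rian had a ratio of 0.870 (0.340 to 1.86) on 7 and 95 UMIs, so no difference was detectable there. Hemoglobin genes, markers of red blood cells, took 13123 CPM of the cycling pericytes and 465 CPM of the others. Their part in these ratios was not tested.

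Dlk1, the paternal protein gene of the same domain, did not follow the trio in the brain. Of its 63 brain UMIs, 57 (90.5%) were in quiescent glial cells, at 18.1 CPM, and neuroblasts had 5 (0.511 CPM). In the lung it measured 64.9 CPM in matrix fibroblasts, 58.9 in smooth muscle cells, 31.8 in pericytes, 10.6 in myofibroblasts and 2.62 in endothelial cells. The myofibroblast value rested on 1 cell with 35 of 46 UMIs.

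Peg3 was broadly present in neural classes, at 138 CPM in neuroblasts, 112 in quiescent glial cells, 88.3 in ependymal cells, 63.5 in mature oligodendrocytes and 58.2 in OPCs. Its lowest brain level was in endothelial cells (9.32 CPM, 11 UMIs). In the lung, matrix fibroblasts stood apart with 1140 CPM, 7.53-fold (6.94 to 8.18) above myofibroblasts (151 CPM) and 35.4-fold (31.9 to 39.4) above pericytes (32.2 CPM). These fibroblasts held 59.1% of the lung's Peg3 UMIs and 13.4% of all UMIs.

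Igf2 was concentrated in the fibroblasts of the brain. The 61 brain fibroblasts held 993 of 1289 Igf2 UMIs, at 2771 CPM, 179-fold (157 to 205) above all other brain cells together. Mural cells measured 418 CPM (194 UMIs, 56 of them in 5 cells), endothelial cells 18.6 CPM, and neuroblasts 2.35 CPM. In the lung no class came near the brain fibroblasts. Igf2 measured 82.7 CPM in matrix fibroblasts, 52.1 in endothelial cells, 43.5 in pericytes, 32.0 in smooth muscle cells and 8.03 in myofibroblasts.

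H19, the neighbor of Igf2, was nearly absent from the brain library, with 3 UMIs in 4151 cells and none in the fibroblasts and mural cells that carried Igf2. At 0 UMIs, brain fibroblasts could hold up to 8.37 CPM and mural cells up to 6.46 CPM at 3 counts. The lung library held 3299 H19 UMIs, with 175 CPM in pericytes, 89.8 in matrix fibroblasts, 49.0 in smooth muscle cells, 48.7 in endothelial cells and 14.0 in myofibroblasts. Pericytes held 63.0% of them.

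Cdkn1c was highest in endothelial cells of both tissues. It measured 406 CPM in brain and 553 in lung endothelial cells, a ratio of 0.734 (0.663 to 0.812). Brain fibroblasts had 296 CPM, OPCs 93.7, mural cells 84.0, activated progenitors 56.9 and neuroblasts 46.9, whereas quiescent glial cells had 4.14 CPM on 13 UMIs. Activated progenitors stood 13.7-fold (7.34 to 27.6) above quiescent glial cells, but 21 of their 49 UMIs were in 1 cell. Lung pericytes had 424 CPM, matrix fibroblasts 282 and myofibroblasts 247.

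Ndn was spread over the neural classes, with 207 CPM in ependymal cells, 193 in OPCs, 186 in neuroblasts, 150 in activated progenitors and 116 in quiescent glial cells. The first 3 did not differ beyond counting error. Within quiescent glial cells it was 3.57-fold (2.72 to 4.70) higher in the 178 cells with more Gfap or Thbs4 UMIs, markers of stem cells, than in the 381 cells with more Slc7a10 or Agt UMIs, markers of astrocytes (202 and 56.6 CPM). Meg3 differed between these subsets by 1.91-fold (1.57 to 2.32) and Plagl1 by 2.05-fold (1.38 to 3.01). The rest of the 807 quiescent glial cells led in neither marker pair and fell in neither subset. The subsets held 188 and 245 of the 873 Meg3 UMIs of the class, at 281 and 147 CPM, against 278 CPM in the whole class. Lung pericytes had the highest Ndn level of all classes, 367 CPM. Plagl1 measured 50.4 CPM in ependymal and 49.0 in quiescent glial cells, 5.31 in neuroblasts, and 159, 121 and 69.2 CPM in lung matrix fibroblasts, myofibroblasts and pericytes.

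Classes found in both tissues were set side by side to ask which members followed the tissue and which the class. Of the 8 members compared in endothelial cells, none was at least 2-fold higher in brain (10.8% of all genes were) and 6 were at least 2-fold lower (12.2% of all genes). Between brain mural cells and lung pericytes, 1 of 10 was higher (12.9% of genes) and 7 were lower (9.25%). Between brain fibroblasts and lung matrix fibroblasts, 1 of 10 was higher (12.4% of genes) and 8 were lower (9.55%). Members with under 10 brain UMIs entered only through their lung counts, which favors a call of lower in brain. These were Rian, H19, Ndn and Plagl1 in endothelial cells and Mirg, Dlk1, H19 and Plagl1 in mural cells. In fibroblasts they were Rian, Mirg, Dlk1, H19 and Plagl1. The counts of lower members are therefore a description only. The member higher in brain was Igf2 both times, 9.59-fold (8.09 to 11.3) in mural cells and 33.5-fold (29.6 to 37.9) in fibroblasts. In endothelial cells, by contrast, Igf2 was among the 6 lower in brain, at 0.358 times (0.219 to 0.558), or 0.208 in thinned cells. Meg3 was among these 6 too, but with the cell of most Meg3 UMIs left out of each class its ratio was 0.553 (0.334 to 0.878), which leaves 5.

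H19, Ndn and Plagl1 were lower in brain in all 3 class pairs. With brain at 0 UMIs, H19 was at least 19.1-fold, 27.1-fold and 10.7-fold lower in brain endothelial cells, mural cells and fibroblasts, taking 3 counts over the class as the floor. Ndn had brain over lung ratios of 0.129, 0.112 and 0.439 (the first was 0.262 with classes from clusters in place of the gate, and the third 0.247 in thinned cells). Plagl1, at 0, 0 and 1 UMI in the brain classes, was at least 11.2-fold and 10.7-fold lower in the first 2 and had a ratio of 0.0175 (0.000443 to 0.0980) in fibroblasts. Meg3 had ratios of 0.485 (0.325 to 0.704, turned to 1.44 with clusters), 0.459 (0.390 to 0.537) and 0.0422 (0.0292 to 0.0591). Peg3 had ratios of 0.154 (0.0756 to 0.281) and 1.34 (0.808 to 2.10) in endothelial and mural cells and 0.0489 (0.0299 to 0.0757) in fibroblasts. The endothelial ratio of Peg3 was 0.335 with clusters and 0.0618 in thinned cells. Rian had a ratio of 0.437 (0.238 to 0.737) in mural cells, which was 0.164 in thinned cells, and 0.0536 (0.0110 to 0.157) in fibroblasts. All 3 Rian UMIs of the brain fibroblasts were in 1 cell, and the ratio was 0 with the cell of most Rian UMIs left out of each class. Dlk1, at 0 UMIs in these brain classes, was at least 4.93-fold lower in mural cells and 7.75-fold lower in fibroblasts, and Mirg at least 1.99-fold lower in fibroblasts. Mirg is among the 8 counted in fibroblasts because its ratio of 0 UMIs to 71 is 0 with an interval that excludes 1, though its bound at 3 counts is just under 2-fold. Cdkn1c measured 296 CPM in brain and 282 CPM in lung fibroblasts (1.05, 0.852 to 1.28), a ratio that turned to 0.769 (0.624 to 0.938) with scaling by trimmed means (TMM) and to 0.919 without the cell with the most Cdkn1c UMIs in each class. It was 0.198 times (0.141 to 0.271) as high in mural cells as in pericytes. The brain and lung classes share marker genes but not all of their identity, so a class difference and a tissue difference cannot be told apart. The brain endothelial cells also held 11920 CPM of hemoglobin genes against 2258 in the lung.

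**Figure D5:**
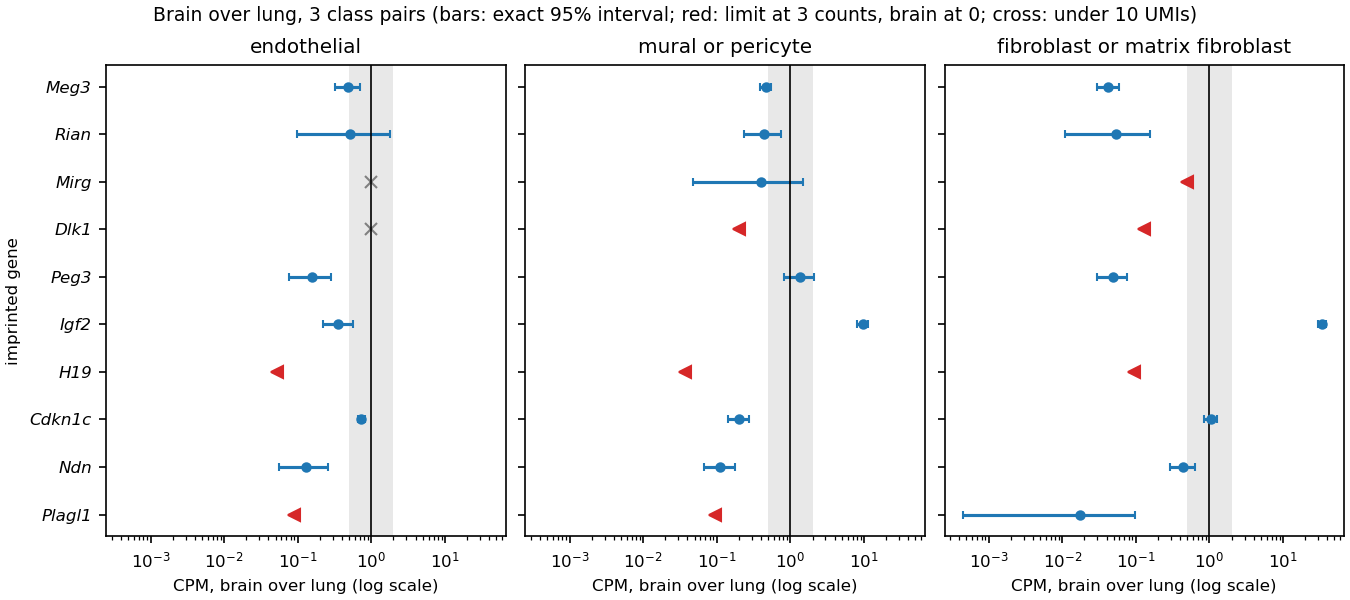
CPM in brain over CPM in lung (log scale) for each of the 10 genes in 3 pairs of classes, with exact 95% intervals, a grey band for less than 2-fold, a red arrow at the ratio that 3 counts in brain would give where brain had 0 UMIs and a grey cross where both classes together had under 10. Most points lie left of 1, and Igf2 lies right of it in the mural and fibroblast pairs.

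Of 47 other imprinted genes listed, 41 had counts in the brain and 39 in the lung. Between non-cycling and cycling neuroblasts, 31 were compared, 2 were at least 2-fold higher and 3 lower (7.79% and 7.35% of all genes), and their median was 0.14 on the log2 scale against 0.06 for all genes. The highest among those with at least 50 UMIs was Begain, which lies beside Dlk1 in the domain of the trio, at 19.4 and 5.30 CPM (3.66-fold, 2.14 to 6.72). Grb10, an adaptor that damps insulin signaling, was lower, at 7.18 and 21.2 CPM. Snrpn, a splicing protein of the Prader-Willi domain that also holds Ndn, was 1.39-fold (1.25 to 1.55) higher in late than early neuroblasts, at 354 and 255 CPM. Nnat, a small membrane protein, was higher in brain than lung fibroblasts, at 1021 and 8.20 CPM, and Mest, a paternal hydrolase gene, measured 120 CPM in lung pericytes and 0 UMIs in brain mural cells. In the 3 pairs of classes, 30, 31 and 31 of these genes were compared, 5, 3 and 5 were at least 2-fold higher in brain (10.8%, 12.9% and 12.4% of all genes) and 8, 5 and 8 lower (12.2%, 9.25% and 9.55% of all genes).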

How the data were processed

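The authors made the deposited tables with bcl2fastq 2.19.1.403, UMI-tools 1.0.0, STAR 2.7.1a (mm10) and featureCounts 1.6.4, per the labels' processing notes. They hold UMI counts per gene and cell barcode, deposited by the authors without normalization. The version of the annotation, the rule that chose barcodes and the use of strand were not given in the sources used here.

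Cells with over 200 and under 4000 genes and under 40% mitochondrial counts passed, the limits the authors describe, and keeping every barcode was an alternative. Doublets stayed in. Scrublet (scanpy 1.11.5) called 44 brain cells (1.06%) and 74 lung cells (1.32%), and their removal was an alternative. Counts were summed per class and divided by the class total. With 1 library per group no test was made, and a gene was called at 2-fold or more where the exact conditional binomial interval of the ratio excluded 1, among genes with at least 10 UMIs over both classes. The calculation was tested on simulated data. Summed counts of whole cells favor deep cells, and CPM shares 1 total, so a high gene lowers the others.

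The members and lists were chosen with earlier results of these data known, and the lead of 0.1 marker share was set after class sizes and member levels had been seen. All members were named. Of the 47 other imprinted genes, up to 6 a direction with the largest ratio, an interval excluding 1 and at least 50 UMIs could be named, and the 5 genes with the highest correlation to Meg3. Scaling by TMM used edgeR 4.0.16 in R 4.3.3. Promoters and miRNAs are from RefSeq (GRCm38.p6).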

Additional observations from a re-analysis of the deposited data

Results flagged for a closer look

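For 2 members, the order of endothelial and mural or pericyte cells was opposite in the tissues. Peg3 in endothelial cells was 0.216 times (0.0937 to 0.474) its level in mural cells in the brain, on 11 and 20 UMIs, and 1.88 times (1.58 to 2.24) its level in pericytes in the lung, on 208 and 382 UMIs. Igf2 had ratios of 0.0446 (0.0273 to 0.0695) in the brain and 1.20 (1.005 to 1.42) in the lung. No test of this difference was made, since each tissue had 1 library. The brain endothelial cells held 22 Igf2 UMIs, 14 of them in 5 cells.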

How the results depend on the processing

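No paired analysis was possible because each group was 1 library. Of the recomputed values for the leading comparisons, 211 stayed within their counting interval (counts within 1.5 times), 31 moved beyond it and 2 crossed 1 from a reported interval that excluded 1. Of the values for single members beside these, 677 stayed, 50 moved and 3 crossed in that way. A further 7 and 18 values, among those counted as stayed or moved, crossed 1 from a reported interval that held 1. Choices made after seeing the data included the lead of the gate, the non-cycling over cycling comparison, the removal of shared barcodes, the split by depth and leaving out the cell with the most UMIs of a gene. The counts of members at 2-fold or more in the 3 class pairs stayed within 1.5 times under every alternative run.

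Late over early neuroblasts, Meg3 (1.479) was 1.115 as a mean of single-cell CPM, 1.156 thinned, 1.055 under and 2.731 at or over the median depth, 1.342 with 2 parts, 2.268 with the early score subtracted and 2.516 with cycling cells ranked too. Rian (1.459) was 0.9726, 1.099, 0.9967, 3.217, 2.116 and 2.361 in the same order without the 2 parts, so it turned as a mean of single-cell CPM and in shallow cells. Rian per Meg3 (0.9866) was 1.178 in deep cells.

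Non-cycling over cycling neuroblasts, Meg3 (7.257) was 8.147 without the barcode filter, 6.631 with clusters, 8.153 thinned, 4.995 in shallow and 5.240 in deep cells. Rian (4.972) was 6.381 without the filter, 7.218 thinned, 2.464 in shallow and 3.552 in deep cells. Peg3 (0.809) turned to 1.377 in shallow cells.

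Neuroblasts over quiescent glial cells, Meg3 (6.153) was 5.481 without the filter, 8.129 with a larger lead, 5.593 with TMM, 5.392 without mitochondrial genes and Malat1, 8.010 as a mean of cells and 7.855 thinned, and Peg3 (1.23) turned to 0.9100 thinned. Igf2 in brain fibroblasts over other brain cells (179.4) was 220.6 without the filter, 136.5 as a mean of cells and 151.6 thinned. Cdkn1c in endothelial cells, brain over lung (0.7342), was 0.8378 as a mean of cells, and Meg3 there (0.485) turned to 1.444 with clusters. Cdkn1c in fibroblasts, brain over lung (1.049), was 0.7685 with TMM. Rian in endothelial cells (0.5134) was 1.939 with clusters, and Igf2 in neuroblasts over quiescent glial cells (0.8199) was 2.014 thinned. The cause of these differences was not tested. Mirg and brain H19 rest on few UMIs, which limits their precision.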
